A study of Mus musculus with 14 samples.

Results

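The MYC and MAX network was followed through 8 genes, Myc, Mycn, Max, Mxd1, Mxd3, Mxd4, Mxi1 and Mnt, in a mouse pre-B cell line cultured with or without IL-7 and with or without activation of an Ikaros fusion. The members were the probe sets annotated with a single symbol among these 8 names. All 8 were found, each with exactly 1 probe set, out of 19938 genes measured. The cells are BH1-Bcl2-Ik1ER, an Ikaros-deficient line, so every group carries the same retroviruses, 1 for the apoptosis blocker Bcl2 and 1 for Ik1ER, a fusion of Ikaros whose activity 4-hydroxytamoxifen (4OHT) induces. The groups were 6 h without IL-7 and with 4OHT, 6 h with IL-7 and 4OHT, 24 h without IL-7 and with 4OHT, 24 h without IL-7 or 4OHT (withdrawal alone), 24 h with IL-7 and 4OHT (4OHT alone), 24 h with IL-7 and no 4OHT (neither treatment), and time 0. Cells at time 0 had IL-7 and no 4OHT. IL-7 came as 8% medium conditioned by cells that secrete it, and withdrawal meant leaving that medium out; 4OHT was given at 100 nM. Each group had 2 arrays, 1 from each of 2 experiments, and all come from 1 cell line, so that the spread describes this line.

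MYC and MYCN are basic helix-loop-helix leucine zipper proteins that bind the E-box CACGTG as dimers with MAX and activate genes of growth, ribosome production and metabolism. MXD1, MXD3, MXD4, MXI1 and MNT also dimerise with MAX on E-boxes, where they recruit the SIN3 histone deacetylase corepressor. Ikaros is a lymphoid zinc finger factor, and IL-7 is the cytokine on which early B cells depend for growth.

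Values are log2 signals, on which a difference of 1 is a doubling, and a change is a difference of group means ± SE with n = 2 arrays per group. Changes were tested with limma over all genes, with a Benjamini-Hochberg adjusted p under 0.05 as the threshold. With 2 arrays per group, 42.7% to 57.5% of all genes did not overlap between the 2 groups of a comparison, over 8 comparisons. A lack of overlap is therefore given as a description. Array medians over all probe sets ran between 7.23 and 7.43, and the pair of arrays in a group had a Pearson correlation of 0.9968 to 0.9982 across the 19938 genes. Of 8 pre-B markers, 7 were measured with a symbol of their own, and all 7 lay above the median of all values, 7.33, in every group. Their mean level was 12.75 and 12.75 with 4OHT and without IL-7 at 24 h, against 12.24 and 12.23 with IL-7 and no 4OHT, while in that comparison 5 of the 7 passed as higher and 2 as lower, down to -1.04. Of the markers of other cells, 4 of 5 T cell, 4 of 5 myeloid, 2 of 5 stromal, 1 of 3 erythroid and 1 of 3 plasma cell markers lay below the median in every group. Itgam, Col1a1, Col1a2, Col3a1, Klf1, Xbp1 and Sdc1 lay above it in every group. Over the arrays the mean level ran between 6.15 and 6.37 for the T cell list, 6.35 and 6.63 for the myeloid, 7.17 and 7.53 for the stromal, 7.15 and 7.43 for the erythroid and 8.26 and 8.86 for the plasma cell list. Itgam, a myeloid integrin, passed as higher for withdrawal at 24 h, at 0.84 under 4OHT and 0.60 without it, the 1 myeloid marker that passed. Of the 5 myeloid changes, 4 were above 0 under 4OHT (median 0.11) and 1 without it (median -0.06). Sdc1 passed as lower in both withdrawals, at -0.79 and -0.78, while 1 of the 3 plasma cell markers passed as higher in each. The highest of the 3 plasma cell changes was 0.40 under 4OHT and 0.31 without it. The part of these markers in the changes of the members was not tested. The groups hold no cells free of the fusion, so 4OHT itself and Ikaros activity cannot be told apart, and no array at 6 h lacked 4OHT, so 6 h of culture and 4OHT cannot be told apart either. Fewer cells of a type and less RNA per cell cannot be told apart in these bulk samples.

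Myc moved most, and the members as a set split. Over 10 comparisons, Myc passed in 8, higher in 1 and lower in 7. Mxd1 passed in 7, higher in 6, and Mxd4 in 7, higher in 5. Mxi1 and Mnt passed in 3 and 4 comparisons, always higher. Max passed 3 times higher and once lower, Mycn 2 times higher and 3 times lower, and Mxd3 once higher and 4 times lower. The tallies include the interaction of the treatments and the difference between the withdrawal changes at 24 h and 6 h. In these, higher and lower give the sign of a difference between changes, and do not say that the level of a gene was higher or lower. The comparisons share arrays, so these tallies are not independent of each other.

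The share of members that passed exceeded the share of all genes in each comparison, which describes a list chosen with results known. All 8 members had a group mean above the median of all values, while the shares of all genes count dim genes too. With dim genes left out, 6579 genes passed for both treatments against neither, against 6690 with them. The share passing was thus higher among brighter genes, and the part of signal level in the excess was not tested. At 6 h with 4OHT and IL-7 against time 0, 5 of 8 members passed (8.77% of all genes), 4 of them higher (3.92% of all genes) and 1 lower (4.85%). After IL-7 withdrawal at 6 h under 4OHT 6 passed (14.3%), 3 higher (6.78%) and 3 lower (7.48%). At 24 h with neither treatment against time 0, 2 passed (3.09%), 0 higher (0.737%) and 2 lower (2.36%).

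For 4OHT at 24 h in the presence of IL-7, 2 members passed (9.16% of all genes), 2 higher (5.22%) and 0 lower (3.94%). In its absence 3 passed (15.3%), 2 higher (7.1%) and 1 lower (8.17%), and 5 passed with the experiment as a block. For withdrawal at 24 h without 4OHT, 5 passed (20%), 3 higher (11.2%) and 2 lower (8.78%). Under 4OHT 6 passed (24.3%), 3 higher (12.8%) and 3 lower (11.5%). For both treatments together against neither all 8 passed (33.6%), 5 higher (18.1%) and 3 lower (15.4%). For the interaction of the treatments 1 passed (0.687%), 0 higher (0.0702%) and 1 lower (0.617%). For the difference between the withdrawal changes at 24 h and 6 h, 5 passed (5.01%), 3 higher (1.36%) and 2 lower (3.65%).

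**Figure D1:**
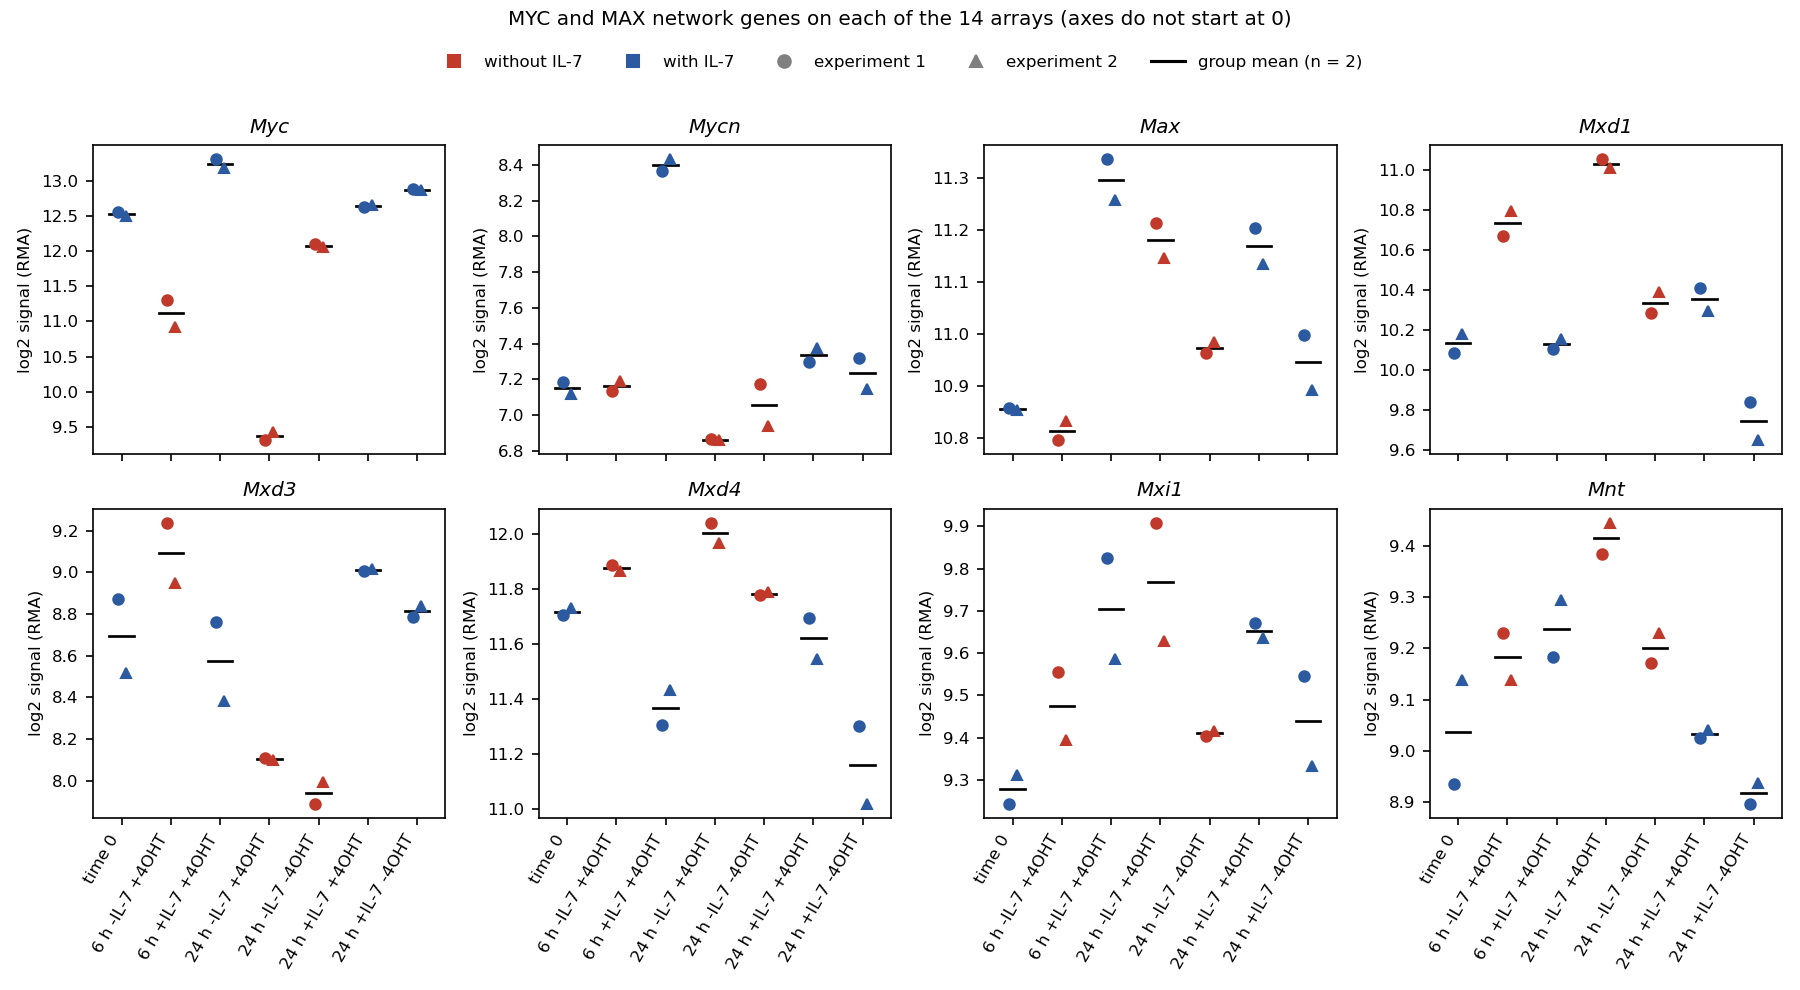
Log2 signal of the 8 members in the 7 groups, 1 panel per gene, with 1 point per array and a bar at the group mean (n = 2). Myc is lowest under both treatments at 24 h, at 9.31 and 9.43, while Mxd1, Mxd4, Mxi1 and Mnt have their highest group mean there.

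Myc, the main activator of the network in most dividing cells, fell when IL-7 was withdrawn and fell most when 4OHT was also present. After 24 h without IL-7 and with 4OHT it was read at 9.31 and 9.43. It was read at 12.10 and 12.05 after withdrawal alone, at 12.63 and 12.66 with IL-7 and 4OHT, and at 12.88 and 12.86 with IL-7 and no 4OHT. The arrays with both treatments lay far below all others, and none of these 4 groups overlapped.

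At 24 h, withdrawal changed Myc by -3.27 ± 0.11 under 4OHT (adjusted p = 2.18e-08), a 9.65-fold lower signal. Without 4OHT the change was -0.80 ± 0.11 (adjusted p = 0.000258), 1.74-fold lower. 4OHT changed Myc by -2.70 ± 0.11 without IL-7 (adjusted p = 1.7e-08). With IL-7 its change was -0.23 ± 0.11, which did not pass (adjusted p = 0.221, 95% interval -0.46 to 0.00).

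The test of the difference itself gave an interaction of -2.47 ± 0.15 for Myc (limma adjusted p = 3.05e-05), with -2.53 in experiment 1 and -2.41 in experiment 2. The single changes add up to -1.03, whereas the change under both treatments was -3.50 ± 0.11. On the linear scale 8.84% of the signal was left with both treatments, 57.5% with withdrawal alone and 85.3% with 4OHT alone. By size, Myc ranked 1 of 19938 genes in this interaction. Next came Srm, the spermidine synthase, at -2.37 and Dctd, a deaminase of nucleotide metabolism, at -2.16. Of the other 7 members 0 passed in limma, and 1, Mycn, had an unadjusted p under 0.05, with -0.30 ± 0.12 (adjusted p = 0.482, 95% interval -0.57 to -0.03). Mxd1 had an interaction of 0.08 (95% interval -0.18 to 0.34) and Mxd4 of -0.24 (95% interval -0.52 to 0.05).

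**Figure D2:**
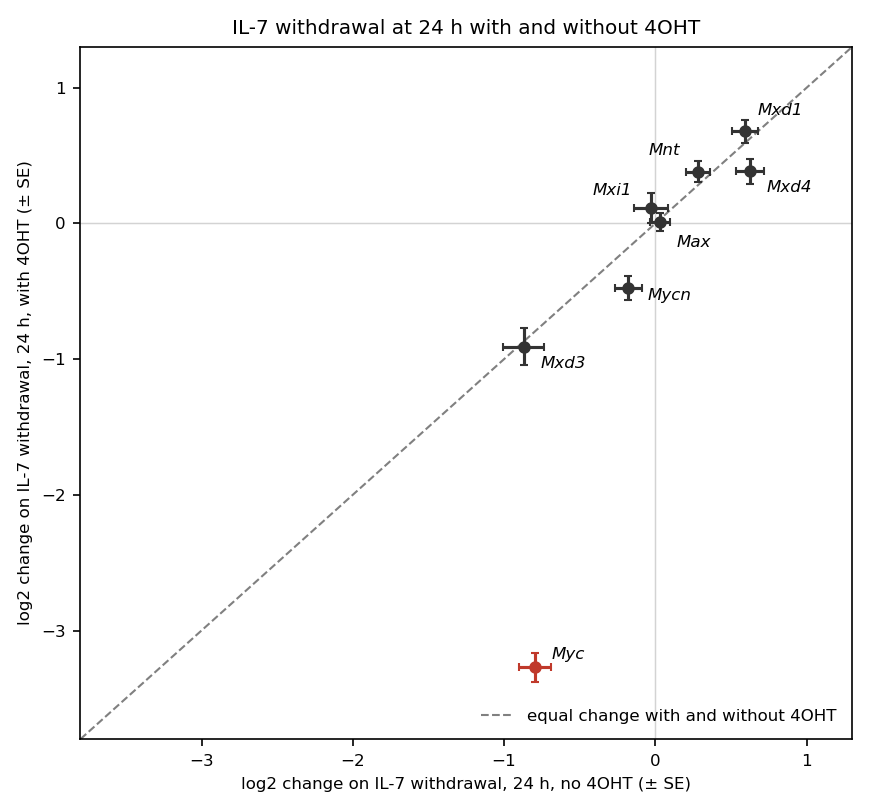
Log2 change on IL-7 withdrawal at 24 h under 4OHT (vertical axis) against the same change without 4OHT (horizontal axis) for the 8 members, with bars of 1 SE and a line of equality. Myc lies far below the line, at -3.27 under 4OHT and -0.80 without it, and the other 7 members lie near it.

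At 6 h Myc was also lower without IL-7. It was read at 11.31 and 10.92 without IL-7, against 13.30 and 13.18 with IL-7, both under 4OHT. The groups did not overlap (nor did they for 47.9% of all genes), and the change was -2.13 ± 0.11 (adjusted p = 2.66e-07). The withdrawal change at 24 h under 4OHT minus the one at 6 h was -1.14 ± 0.15 (adjusted p = 0.000571). With IL-7 and 4OHT at 6 h, Myc was 0.72 ± 0.11 above the 12.55 and 12.49 of time 0 (adjusted p = 0.000936). With 24 h with neither treatment as the baseline instead, the 6 h difference was 0.37 (adjusted p = 0.0544), which did not pass. At 24 h with IL-7 and no 4OHT, Myc differed from time 0 by 0.35 (adjusted p = 0.103), and passed with the experiment as a block (adjusted p = 0.0364). The mean Myc level was highest at 6 h with IL-7 and 4OHT (13.24), followed by 24 h with neither treatment (12.87), 24 h with 4OHT alone (12.64), time 0 (12.52), 24 h after withdrawal alone (12.07) and 6 h without IL-7 (11.11), and lowest at 24 h with both treatments (9.37). No neighbours in that order overlapped, which was not counted over all genes.

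Mycn, a close relative of Myc, was highest at 6 h with IL-7 and 4OHT. It was read there at 8.36 and 8.43, against 7.13 and 7.19 at 6 h without IL-7 and 7.19 and 7.12 at time 0. The 6 h arrays with IL-7 lay above every other array. Mycn passed against time 0 by 1.24 ± 0.09 (adjusted p = 4.2e-06), and for withdrawal at 6 h by -1.23 ± 0.09 (adjusted p = 2.53e-06). Its mean over all arrays, 7.31, was close to the median of all values.

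At 24 h Mycn was read at 6.87 and 6.86 without IL-7 and with 4OHT, at 7.17 and 6.94 after withdrawal alone, at 7.30 and 7.38 with IL-7 and 4OHT, and at 7.32 and 7.15 with neither treatment. The arrays with both treatments were the lowest, and the other 3 groups overlapped in part. The highest Mycn group mean at 24 h was 7.34, against a median of all values of 7.33, so these are changes of a dim signal. Withdrawal under 4OHT changed Mycn by -0.47 ± 0.09 (adjusted p = 0.00175). The change without 4OHT was -0.18 and did not pass. Mycn also passed for both treatments against neither (-0.37 ± 0.09, adjusted p = 0.00503), and did not without experiment 1 of the group with neither (adjusted p = 0.0567). Its withdrawal change under 4OHT at 24 h minus the one at 6 h was 0.76 ± 0.12 (adjusted p = 0.00276).

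Max encodes the partner with which the other members dimerise. It varied over a span of 0.48, and its highest values were also at 6 h with IL-7 and 4OHT, 11.34 and 11.26, against 10.80 and 10.83 without IL-7 and 10.86 and 10.86 at time 0. The groups did not overlap. Max passed against time 0 by 0.44 ± 0.07 (adjusted p = 0.00116) and for withdrawal at 6 h by -0.48 ± 0.07 (adjusted p = 0.000406).

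At 24 h Max was read at 11.21 and 11.15 with both treatments, at 10.96 and 10.98 after withdrawal alone, at 11.20 and 11.13 with 4OHT alone and at 11.00 and 10.89 with neither. The arrays with 4OHT lay above those without it. Withdrawal did not pass for Max, with 0.01 under 4OHT (95% interval -0.14 to 0.16) and 0.03 without it (95% interval -0.12 to 0.17). The difference between the 24 h and 6 h changes passed for Max at 0.49 ± 0.09 (adjusted p = 0.0088). For 4OHT the Max differences were 0.22 with IL-7 and 0.21 without, which passed with the experiment as a block (adjusted p = 0.0256 and 0.0283, against 0.0592 and 0.0593). For both treatments against neither Max was 0.23 ± 0.07 higher (adjusted p = 0.0155). This call was lost without experiment 1 of the arrays with both treatments (adjusted p = 0.104) or experiment 2 of those with neither (adjusted p = 0.123).

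**Figure D3:**
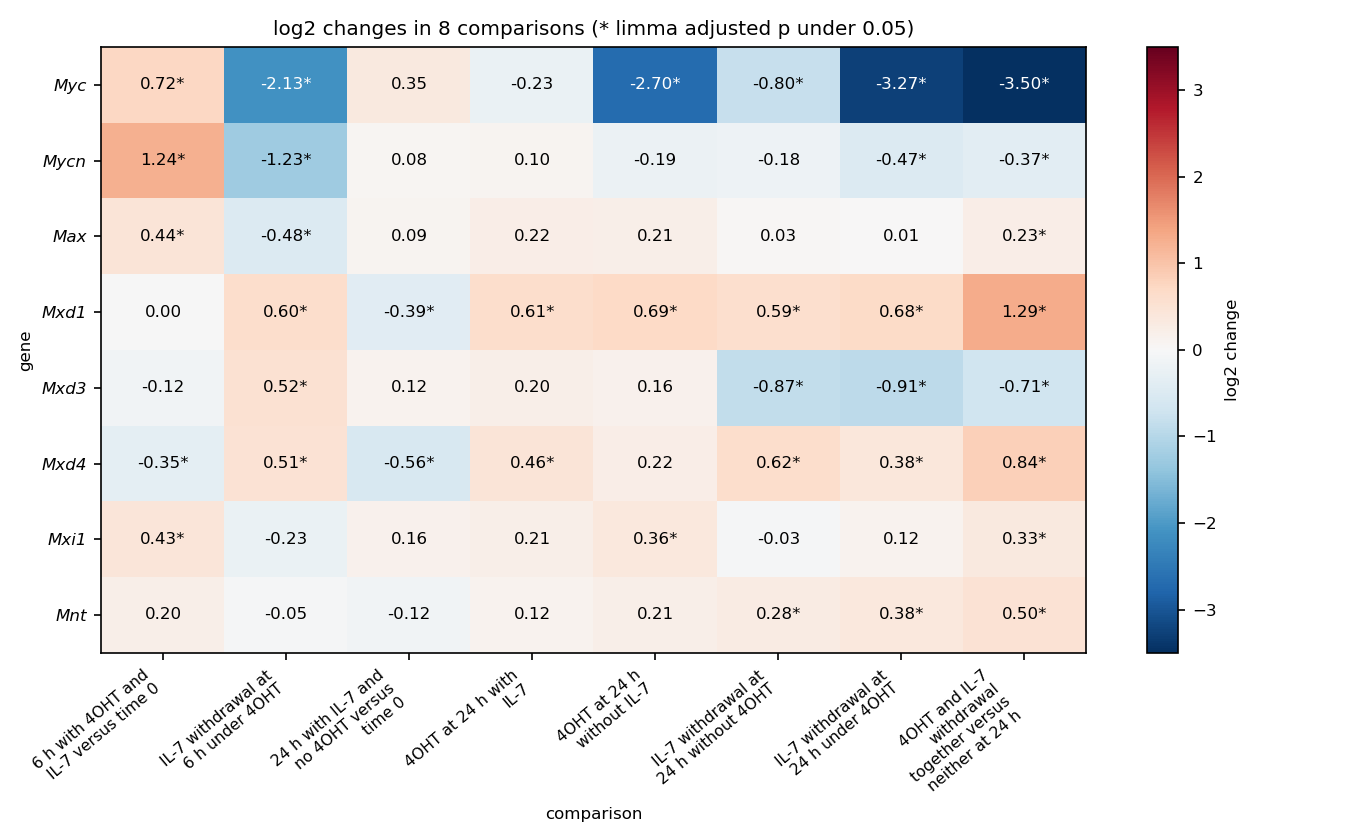
Log2 change of the 8 members (down the page) in 8 comparisons between groups (across it), coloured by sign and size and printed in each cell, with a star on the changes that passed. Myc has the strongest negative values, down to -3.50 for both treatments against neither, and Mxd1 the highest positive one, 1.29, in the same comparison.

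Mxd1 and Mxd4, antagonists often raised as cells leave the cycle, were highest at 24 h under both treatments, where Myc was lowest. They passed in the same direction in 6 of the 10 comparisons, and each passed in the direction opposite to Myc in 5. Mxd1 was read at 11.05 and 11.01 with 4OHT and without IL-7, at 10.28 and 10.39 after withdrawal alone, at 10.41 and 10.30 with IL-7 and 4OHT, and at 9.84 and 9.65 with IL-7 and no 4OHT. Either treatment alone gave values between those with both and those with neither, and these did not overlap with either end. 4OHT raised Mxd1 by 0.61 ± 0.08 with IL-7 (adjusted p = 0.000622) and by 0.69 ± 0.08 without it (adjusted p = 0.000111). Withdrawal raised it by 0.59 ± 0.08 without 4OHT (adjusted p = 0.000414) and by 0.68 ± 0.08 under 4OHT (adjusted p = 0.000105). Both together gave 1.29 ± 0.08, a 2.44-fold higher signal, against a sum of the single changes of 1.20.

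At 6 h Mxd1 was read at 10.67 and 10.80 without IL-7, against 10.10 and 10.16 with it, and passed by 0.60 ± 0.08 (adjusted p = 0.000429). The withdrawal changes at 24 h and 6 h differed by 0.07 (95% interval -0.19 to 0.33). Against time 0, at 10.08 and 10.18, the change at 6 h with IL-7 and 4OHT was under 0.01 in size and did not pass, and with 24 h with neither treatment as the baseline it was 0.39 (adjusted p = 0.0150). At 24 h with IL-7 and no 4OHT it passed as lower, at -0.39 ± 0.08 (adjusted p = 0.0316). That call was lost without experiment 2 of either group (adjusted p = 0.26 and 0.267).

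Mxd4 was read at 12.04 and 11.97 with both treatments at 24 h, at 11.78 and 11.79 after withdrawal alone, at 11.69 and 11.55 with IL-7 and 4OHT, and at 11.30 and 11.02 with IL-7 and no 4OHT. The order of the groups was the one seen for Mxd1, except that withdrawal alone exceeded 4OHT alone, with no overlap. Across all 7 groups no neighbours in the order of Mxd4 levels overlapped, which was not counted over all genes. Withdrawal raised it by 0.62 ± 0.09 without 4OHT (adjusted p = 0.000566) and by 0.38 ± 0.09 under 4OHT (adjusted p = 0.00903). The call under 4OHT was lost without experiment 1 of the arrays with both treatments (adjusted p = 0.0572) or experiment 2 of those with IL-7 and 4OHT (adjusted p = 0.0829). 4OHT with IL-7 raised it by 0.46 ± 0.09 (adjusted p = 0.00747), lost without experiment 1 of the arrays with 4OHT (adjusted p = 0.103) or experiment 2 of those with neither (adjusted p = 0.0809). Without IL-7 the 4OHT change was 0.22 (adjusted p = 0.154).

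At 6 h Mxd4 was read at 11.89 and 11.87 without IL-7, against 11.30 and 11.43 with it, a change of 0.51 ± 0.09 (adjusted p = 0.00272). Against the 11.70 and 11.73 of time 0, Mxd4 passed as lower at 6 h with IL-7 and 4OHT (-0.35 ± 0.09, adjusted p = 0.0349). That call was lost on leaving out any 1 of the 4 arrays (adjusted p up to 0.239), and with 24 h with neither treatment as the baseline the value was 0.21 (adjusted p = 0.223). At 24 h with IL-7 and no 4OHT, Mxd4 also passed as lower than at time 0, at -0.56 ± 0.09 (adjusted p = 0.00974), which was lost without experiment 2 of either group (adjusted p = 0.0908 and 0.101).

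The promoters of Mxd4, which holds an E-box, of Mxd1, which does not, and of Max, whose E-box spans the start, are printed from the RefSeq table of build GRCm38.p6. Each run covers 250 bases before the start and 30 from it, 5′ to 3′ along the gene, with the E-box in capitals.
Mxd4 (chr5:34187681-34187960, minus strand): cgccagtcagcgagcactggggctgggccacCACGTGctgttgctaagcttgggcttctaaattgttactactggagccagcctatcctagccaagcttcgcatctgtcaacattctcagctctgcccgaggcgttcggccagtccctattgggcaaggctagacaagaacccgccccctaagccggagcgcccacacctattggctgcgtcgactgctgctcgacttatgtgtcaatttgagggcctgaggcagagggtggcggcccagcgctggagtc
Mxd1 (chr6:86669130-86669409, minus strand): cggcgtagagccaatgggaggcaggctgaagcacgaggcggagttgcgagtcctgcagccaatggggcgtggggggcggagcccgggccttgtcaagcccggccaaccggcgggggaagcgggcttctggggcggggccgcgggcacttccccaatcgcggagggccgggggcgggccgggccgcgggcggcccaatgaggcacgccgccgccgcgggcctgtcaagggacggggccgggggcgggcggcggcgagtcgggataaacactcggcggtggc
Max (chr12:76962219-76962498, minus strand): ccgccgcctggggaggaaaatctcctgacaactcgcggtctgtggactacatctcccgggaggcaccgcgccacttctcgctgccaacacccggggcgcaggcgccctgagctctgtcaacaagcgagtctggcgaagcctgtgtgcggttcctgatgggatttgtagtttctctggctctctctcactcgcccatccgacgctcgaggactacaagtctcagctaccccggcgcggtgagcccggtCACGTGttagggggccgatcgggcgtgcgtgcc
The E-box begins at position -219 in Mxd4, at -3 in Max and at -123 in Mnt. The table held a promoter for 7 members and none for Myc, so Myc was not searched for any motif. CACGTG reads the same on both strands, and 7.71% of 27025 genes with a promoter hold it in such a window. Searches for TGGGAA, a core of Ikaros sites, and TTCNNNGAA, the STAT5 motif, were run on both strands. TGGGAA was in Mxd3 and in 2 of 3 Mxi1 promoters, against 23.8% of all 32851 promoters, and TTCNNNGAA was in none of the 7 members searched, against 7.83%. A match describes letters in this window and was tested against no binding data.

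Mxd3, the family member linked to dividing cells in S phase, was lower after withdrawal at 24 h. It was read at 8.11 and 8.10 with both treatments and at 7.89 and 7.99 after withdrawal alone, against 9.01 and 9.02 with IL-7 and 4OHT and 8.79 and 8.84 with IL-7 and no 4OHT. All arrays without IL-7 lay below all arrays with it. Withdrawal changed Mxd3 by -0.91 ± 0.14 under 4OHT (adjusted p = 0.000443) and by -0.87 ± 0.14 without it (adjusted p = 0.000843). 4OHT did not pass, with 0.16 without IL-7 (95% interval -0.14 to 0.46).

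At 6 h the sign of the Mxd3 change was the opposite. It was read at 9.24 and 8.95 without IL-7, against 8.76 and 8.38 with it, and at 8.87 and 8.52 at time 0. The 6 h groups did not overlap (0.52 ± 0.14, adjusted p = 0.0235). This call was lost without experiment 1 of the arrays without IL-7 (adjusted p = 0.191) or experiment 2 of those with it (adjusted p = 0.193). The change at 24 h differed from that at 6 h by -1.43 ± 0.19 (adjusted p = 0.000744). Beside it, Aurka, a mitotic kinase that also stabilises MYC proteins, passed as lower, at -1.66, for withdrawal at 24 h under 4OHT. At 6 h the Aurka change was 0.36 (adjusted p = 0.268), which passed with the experiment as a block (adjusted p = 0.0152), and the 24 h change differed from it by -2.02 ± 0.26 (adjusted p = 0.000522). Skp2, an F-box protein that acts on MYC turnover and on cell cycle inhibitors, changed by -2.15 ± 0.13 for withdrawal at 24 h under 4OHT and by -0.01 at 6 h. The part of these genes in the Mxd3 change was not tested.

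**Figure D4:**
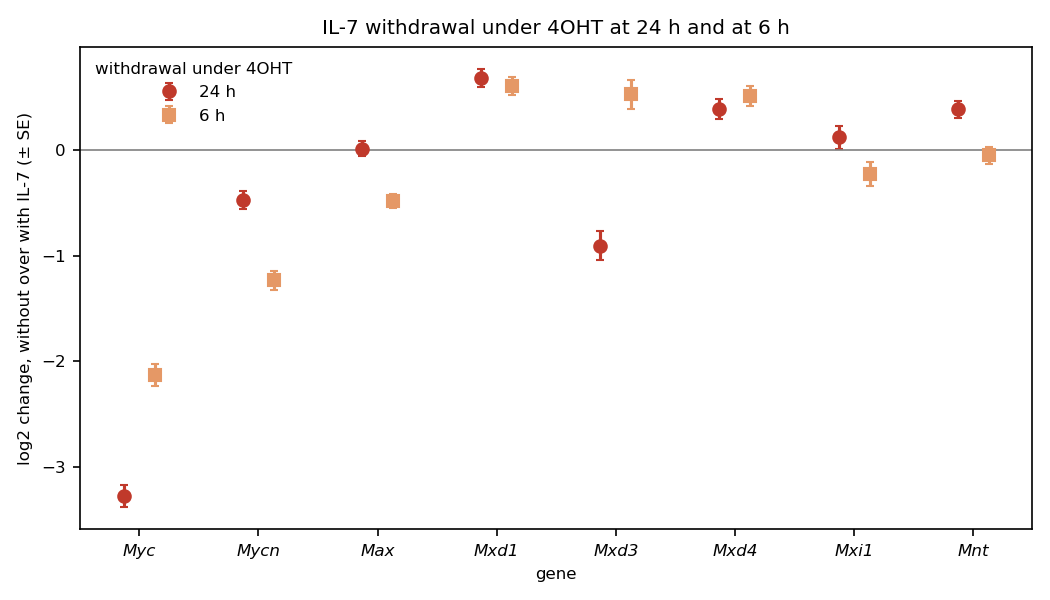
Log2 change on IL-7 withdrawal under 4OHT at 6 h and 24 h for each member, with bars of 1 SE. Mxd3 changes sign, 0.52 at 6 h and -0.91 at 24 h, Mycn and Max lie nearer 0 at 24 h, and Myc lies lower at 24 h.

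Mxi1 and Mnt, further MAX-binding repressors, varied little, with spans of 0.49 and 0.50. Mxi1 was read at 9.91 and 9.63 with both treatments at 24 h, at 9.40 and 9.42 after withdrawal alone, at 9.67 and 9.64 with 4OHT alone and at 9.55 and 9.33 with neither. At 6 h it was read at 9.56 and 9.39 without IL-7 and 9.82 and 9.59 with it, and at 9.24 and 9.31 at time 0. Several of these groups overlapped, and time 0 was the lowest. Mxi1 passed for 4OHT without IL-7 by 0.36 ± 0.11 (adjusted p = 0.0476). That call was lost without experiment 1 of the arrays with both treatments (adjusted p = 0.336) or either array of withdrawal alone (adjusted p = 0.191 and 0.163).

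Mxi1 also passed at 6 h with IL-7 and 4OHT against time 0 (0.43 ± 0.11, adjusted p = 0.0309). The call was lost without experiment 1 of the 6 h arrays (adjusted p = 0.259), without either time 0 array (adjusted p = 0.156 and 0.0932), and with 24 h with neither treatment as the baseline (0.27, adjusted p = 0.193). For both treatments against neither Mxi1 was higher by 0.33 ± 0.11 (adjusted p = 0.0367). This was lost without experiment 1 of the arrays with both (adjusted p = 0.319) or experiment 2 of those with neither (adjusted p = 0.267).

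Mnt was read at 9.38 and 9.44 with both treatments at 24 h, at 9.17 and 9.23 after withdrawal alone, at 9.02 and 9.04 with IL-7 and 4OHT, and at 8.90 and 8.94 with IL-7 and no 4OHT. The arrays without IL-7 lay above those with it. At 6 h Mnt was read at 9.23 and 9.14 without IL-7 and 9.18 and 9.29 with it, which overlapped, and at 8.94 and 9.14 at time 0. The 6 h change with IL-7 and 4OHT against time 0 was 0.20 ± 0.08 and did not pass (adjusted p = 0.173), and with 24 h with neither treatment as the baseline it was 0.32 and passed (adjusted p = 0.0277). Withdrawal at 24 h raised Mnt by 0.38 ± 0.08 under 4OHT (adjusted p = 0.00374), and by 0.28 ± 0.08 without it (adjusted p = 0.0243). The second call was lost on leaving out any 1 of its 4 arrays (adjusted p up to 0.157). Both treatments against neither gave 0.50 ± 0.08 (adjusted p = 0.000302). 4OHT without IL-7 gave 0.21 (adjusted p = 0.0989), which passed with the experiment as a block (adjusted p = 0.0451). The Mnt withdrawal change under 4OHT at 24 h minus the one at 6 h was 0.44 ± 0.11 (adjusted p = 0.0458), lost without any 1 of the 8 arrays (adjusted p up to 0.175).

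Most measured genes in a list of genes that MYC is known to activate were lower after IL-7 withdrawal. The list was chosen with earlier results of these data known and does not stand for all MYC targets. Of 29 measured targets in this list of 30, 26 passed as lower after withdrawal at 6 h under 4OHT (7.48% of all genes). Their median change was -1.54, against 0.03 for all genes. At 24 h, 28 were lower for withdrawal under 4OHT (11.5% of all genes, median -1.32, against 0.06) and 26 without 4OHT (8.78%, median -0.91, against -0.01). For 4OHT without IL-7, 22 were lower (8.17% of all genes) and 1 higher (7.1%), with a median of -0.57. With IL-7 0 passed in limma (9.16% of all genes, median -0.11), 4 had an unadjusted p under 0.05, and 1 passed as lower with the experiment as a block. Against time 0, 14 were higher at 6 h with IL-7 and 4OHT (3.92%, median 0.36), and 10 at 24 h with IL-7 and no 4OHT (0.737%, median 0.39), a count that was 21 with the block. For the 24 h change less the 6 h change, 2 were higher (1.36%, median -0.03), and 3 higher and 2 lower with the block.

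Srm, which makes spermidine, changed by -3.67 ± 0.15 for withdrawal at 24 h under 4OHT and by -1.31 ± 0.15 without 4OHT. Polr1b, a subunit of RNA polymerase I, changed by -2.47 ± 0.10 under 4OHT and by -0.99 ± 0.10 without it. Ccnd2, a D-type cyclin, changed by -3.07 ± 0.19 under 4OHT. Each of these changes passed. In the interaction 6 targets were lower (0.617% of all genes) and 1 higher (0.0702%), with a median of -0.48 against 0.03. With the block 14 were lower and 1 higher. Srm had -2.37 ± 0.22 (adjusted p = 0.000581) and Polr1b -1.48 ± 0.14 (adjusted p = 0.00083). Tfrc, the transferrin receptor, was the 1 that was higher, with 1.14 ± 0.22 (adjusted p = 0.0389).

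The 4 targets taken as examples ran from large to small changes. Odc1, the ornithine decarboxylase of polyamine synthesis, changed by -1.47 ± 0.21 for withdrawal at 6 h, by -2.31 ± 0.21 and -1.34 ± 0.21 at 24 h with and without 4OHT, and by -1.05 ± 0.21 for 4OHT without IL-7, and passed in each. Cad, an enzyme of pyrimidine synthesis, changed by -1.74 ± 0.12, -1.35 ± 0.12 and -1.15 ± 0.12 in the same withdrawals, which passed, and by -0.22 ± 0.12 for 4OHT without IL-7, which did not. Ncl, a nucleolar protein, changed by -0.49, -0.58 and -0.45 (each ± 0.11), which passed, and by -0.11 for 4OHT. Npm1, another nucleolar protein, passed for withdrawal at 24 h under 4OHT, at -0.93 ± 0.16. It did not pass at 6 h (-0.50, adjusted p = 0.0645), at 24 h without 4OHT (-0.48, adjusted p = 0.0599) or for 4OHT without IL-7 (-0.38, adjusted p = 0.157). With the experiment as a block these Npm1 changes passed (adjusted p = 0.00976, 0.00961 and 0.0372, in that order).

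**Figure D5:**
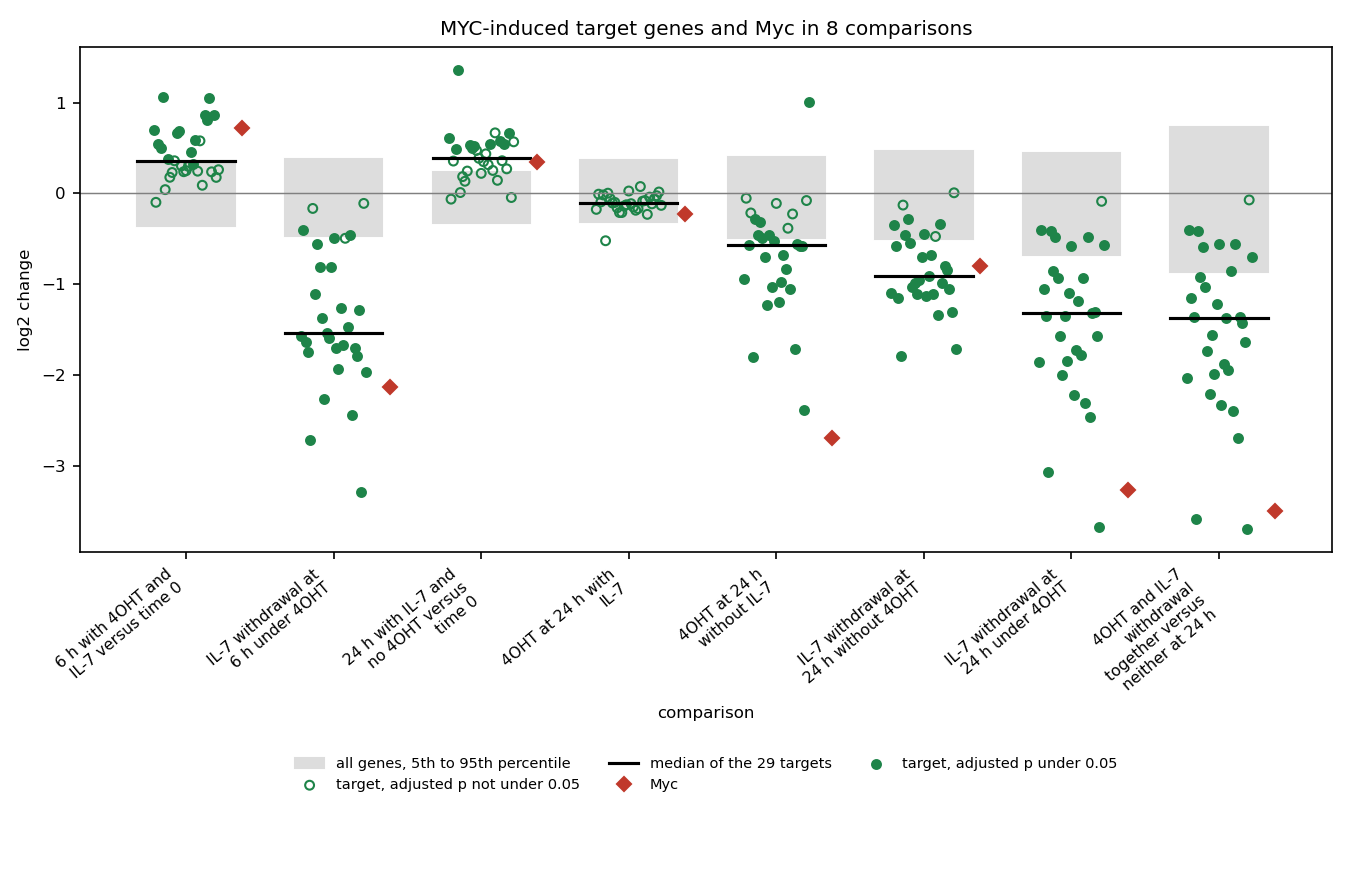
Log2 changes of the 29 measured MYC-induced targets in 8 comparisons, with 1 point per gene (filled where it passed), a bar at their median, a grey band for the bulk of all genes and a diamond for Myc. The targets lie mostly below 0 in the comparisons in which Myc passed as lower, with medians of -1.54 at 6 h and -1.32 at 24 h for withdrawal under 4OHT.

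Other genes that act with the network moved in both directions for both treatments against neither, where the median of all genes was -0.01 and 33.6% of all genes passed, 18.1% higher and 15.4% lower. Of 9 coactivator genes 5 were lower and 3 higher (median -0.76), with Ruvbl2 (-1.10), a helicase, Kat2a (-1.08 ± 0.09), a histone acetyltransferase, and Wdr5, a histone-binding scaffold, among the lower ones. Trrap (0.58), a scaffold of acetyltransferase complexes, was higher. Of 10 measured genes of the SIN3 corepressor 5 were lower and 2 higher (median -0.18), with Sap30 (-1.29 ± 0.09) and Rbbp7 (-0.96) lower and Sin3b (0.50) higher.

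Of 9 measured genes of MYC protein turnover 3 were lower (15.4% of all genes) and 3 higher (18.1%) for both treatments against neither (median 0.01). Skp2 was at -2.30 ± 0.13, Aurka at -1.52 and Usp36, a deubiquitinase, at -0.66. Of 6 measured MYC paralogs and MLX branch genes, 1 was higher and 1 lower (median -0.13), a share close to the 33.6% of all genes. Mlxip, which pairs with MLX and senses glucose metabolites, rose by 1.42 ± 0.09, and by 0.61 ± 0.09 for 4OHT with IL-7, and Mycl was at -0.26.

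Of 7 measured genes that MYC is known to repress, 3 were higher and 1 lower for both treatments against neither (median 0.03). Gadd45b and Gadd45a, stress response genes, rose by 1.78 ± 0.12 and 1.59, and the cyclin-dependent kinase inhibitor Cdkn1b by 1.20 ± 0.10, while Ndrg1 was at -1.07 ± 0.10. For 4OHT with IL-7, where Myc did not pass, Gadd45b rose by 1.39 ± 0.12 and Cdkn1b by 0.69 ± 0.10, and Ndrg1 passed as lower, at -1.31 ± 0.10.

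Genes with the pattern most like each member over the 7 group means were taken from 10940 genes by Pearson's r, given as a description. For Myc they were Med29 (0.997), Sinhcaf (0.992) and Hddc2 (0.992). For Mxd1 they were Coq10a (0.998), Tsc22d4 (0.998) and Thbd (0.995). For Mxd3 they were G2e3 (0.996), Cenpl (0.993) and Cep128 (0.989), and for Mxd4 they were Gtf3c1 (0.992), Ndufaf3 (0.987) and Zhx2 (0.987). Mycn was closest to Txndc17 (0.982), Csf2rb (0.981) and Tpp2 (0.976), and Max to Mbnl1 (0.986), Zfp94 (0.974) and Mafk (0.972). Mxi1 was closest to Mier2 (0.987), Treml2 (0.985) and Bloc1s2 (0.980), and Mnt to Arap1 (0.989), Micall1 (0.986) and Sertad2 (0.985). Spans differed among these genes too, with 0.19 for Txndc17 and 1.79 for Csf2rb against 1.53 for Mycn. All of these rest on the same 14 arrays.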

How the data were processed

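Total RNA was measured on 14 arrays in 7 groups. The authors deposited log2 values for 35556 probe sets, processed with RMA in Affymetrix Expression Console 1.1, per the submitters' processing notes. RMA corrects background and normalizes arrays by quantiles, so each change is set against the bulk of all genes, and limits of detection were not read here. The genome build is not given in the sources used here. Probe sets were named through the platform's annotation, 21789 with 1 symbol, 1621 with several and 12146 unlisted. Where a gene had several (999 genes), the brightest was used, leaving 19938 genes.

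Differences were tested, two-sided, with limma 3.58.1 in R 4.3.3, in 1 fit over all arrays with 7 residual and 4.83 prior degrees of freedom, and p-values were adjusted by Benjamini-Hochberg over 19938 genes. The labels number 2 experiments, which pair the arrays. Deviations of same-numbered arrays correlated at 0.124 to 0.631 in 21 pairs of groups, and 3731 genes differed between experiments, none of them a member. The members and gene lists were chosen with earlier results of these data known. Every member and, per list, fixed examples and the largest passing changes were named; Trrap, Dctd, the Ndrg1 value under both treatments, the Cdkn1b value for 4OHT and changes of a named gene that did not pass were chosen after their values were seen. The fit was tested on simulated data with independent arrays and no shift between experiments. That test does not cover the pairing of the arrays. Promoters are RefSeq's (GRCm38.p6). Alternatives were the experiment as a block, the compared arrays alone, renewed quantile normalization, a filter on dim genes, another baseline and leaving out single arrays. The number of arrays limits the precision.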

Additional observations from a re-analysis of the deposited data

Results flagged for a closer look

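The changes of 5 members differed between conditions under the test of the difference itself. For Myc the effect of IL-7 withdrawal at 24 h differed between cells with and without 4OHT by -2.47. The effect of withdrawal under 4OHT differed between 24 h and 6 h by -1.14 for Myc, 0.76 for Mycn, 0.49 for Max, -1.43 for Mxd3 and 0.44 for Mnt. The Mnt difference was lost on leaving out any 1 of its 8 arrays.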

How the results depend on the processing

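With 2 arrays per group, small changes turned on single arrays. Under every alternative run the Myc calls kept their direction and their side of the threshold, except at 6 h against time 0, where another baseline ended the call, and at 24 h against time 0, where the block made one. With the experiment as a block 2999 genes passed at 6 h against time 0 (1748 without it), 2056 at 24 h against time 0 (617), 3324 for 4OHT with IL-7 (1826), 449 for the interaction (137) and 1972 for the 24 h less the 6 h withdrawal change (998), and 5 members for 4OHT without IL-7 (3). The block ended no member call and added 4, for Myc at 24 h against time 0, Max for 4OHT with and without IL-7 and Mnt for 4OHT without IL-7. With the compared arrays alone 884 genes and 3 members passed at 6 h against time 0, 128 genes and 0 members at 24 h against time 0, and 1 member for 4OHT with IL-7. These smaller fits have fewer residual degrees of freedom. They ended 10 member calls, with adjusted p-values of 0.0581 to 0.148, for Mxd4 and Mxi1 at 6 h against time 0, Mxd3 for withdrawal at 6 h, Mxd1 and Mxd4 at 24 h against time 0, Mxd4 for 4OHT with IL-7, Mxi1 for 4OHT without it, Max and Mxi1 for both treatments against neither, and Mnt for the 24 h less the 6 h change.

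Renewed quantile normalization ended the Mnt call for withdrawal at 24 h without 4OHT (adjusted p = 0.0520) and turned 3 changes that had not passed, giving Mxd1 0.024 at 6 h against time 0 and interactions of 0.00646 for Max and 0.11 for Mxd3. Max passed for 4OHT with and without IL-7 after dim genes were left out, and without IL-7 after renewed normalization. With 24 h with neither treatment as the baseline in place of time 0, the 6 h change was 0.39 for Mxd1 and 0.21 for Mxd4. The cause of these turns was not tested. Leaving out 1 array at a time left 1067 to 1344 genes at 6 h against time 0, 1490 to 2336 for withdrawal at 6 h, and 39 to 745 at 24 h against time 0, the 39 without experiment 2 of the later group. It left 847 to 1700 and 1841 to 2282 for 4OHT with and without IL-7, 2279 to 3252 for withdrawal at 24 h without 4OHT, 50 to 96 for the interaction and 591 to 872 for the 24 h less the 6 h change. Members passing were 3 to 4 at 6 h against time 0, 0 to 2 at 24 h against time 0 and 1 to 2 for 4OHT with IL-7.

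Changes near 0 that had not passed also turned. At 6 h against time 0 Mxd1 ran between -0.050 and 0.047 and Mxd3 between -0.31 and 0.068. At 24 h against time 0 Mycn ran between -0.0073 and 0.17 and Mxd3 between -0.060 and 0.29. Mnt for withdrawal at 6 h ran between -0.11 and 0.0013. For withdrawal at 24 h without 4OHT Max ran between -0.024 and 0.081 and Mxi1 between -0.14 and 0.076, and under 4OHT Max between -0.024 and 0.046 and Mxi1 between -0.025 and 0.26. Interactions ran between -0.070 and 0.035 for Max, -0.011 and 0.18 for Mxd1, and -0.089 and 0.014 for Mxd3. Each member has 1 probe set, so averaging probe sets could change none of them.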
